A study of Mus musculus with 10 samples.

Results

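Stroke was compared with sham surgery within Hsp72Tg mice, which carry a transgene for the inducible heat shock protein Hsp72. Middle cerebral artery occlusion (MCAO) blocks the main artery of a brain hemisphere and is a mouse model of stroke. The arrays were chosen by their labels: 3 Hsp72Tg MCAO and 2 Hsp72Tg sham, 5 of the 10 arrays of the series. All came from male mice, and total RNA was taken from the whole hemisphere on the operated side 24 h after surgery. The other 5 arrays, 3 WT MCAO and 2 WT sham, were made the same way from mice without the transgene and entered the fit to estimate the spread. The sources used here do not state the promoter or species of the transgene, the age of the mice or how long the artery was blocked. Arrays are named by group and replicate number, and values are log2 RMA expression values, so a difference of 1 is a 2-fold change.

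Loss of blood flow kills neurons of the striatum and cortex within hours, and the surviving tissue responds with heat shock proteins, inflammatory signals and swelling vessels. Astrocytes become reactive: they enlarge, build intermediate filaments such as Gfap and Vim, and form a border around the lesion. Microglia and blood-borne neutrophils and monocytes take part in the inflammation. The tissue was not sorted, so fewer cells of a type and less RNA per cell cannot be told apart in any value below.

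The 3 Hsp72Tg MCAO arrays did not form a tight group. On the first principal component of all 10 arrays, which held 50.3% of the variance, Hsp72Tg sham 1 and 2 lay at -23.0 and -20.7 and Hsp72Tg MCAO 1 at -12.9. Hsp72Tg MCAO 2 and 3 lay at 32.3 and 25.8, beyond the 3 WT MCAO arrays at 11.7 to 17.4. Across genes, which are not independent replicates, Hsp72Tg MCAO 1 correlated at r = 0.992 and 0.996 with Hsp72Tg sham 1 and 2. Its correlation was 0.983 and 0.987 with Hsp72Tg MCAO 2 and 3, and 0.991 to 0.992 with the WT MCAO arrays. Changes below are therefore given per array, with all arrays or without Hsp72Tg MCAO 1, as stated for each gene.

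The same arrays parted a second time, and this time against their genotype label. Cap1, an actin-binding protein, read 10.14, 10.33 and 10.57 in Hsp72Tg sham 1, sham 2 and MCAO 1 but 6.32 and 6.28 in Hsp72Tg MCAO 2 and 3. The 5 WT arrays read 5.91 to 6.59, next to Hsp72Tg MCAO 2 and 3. Tmem87a, a membrane protein, read 8.51, 8.69 and 8.72 in the first 3 arrays, 6.59 and 6.83 in Hsp72Tg MCAO 2 and 3, and 6.49 to 6.80 in the WT arrays. Both probe sets of Cap1 split this way, and Tmem87a has 1. Of 18193 genes, only these 2 set the first 3 arrays apart from the other 7 by at least 1 on the log2 scale. In these genes the libraries labelled Hsp72Tg MCAO 2 and 3 thus read like the WT libraries, which goes against their genotype label. Neither gene is the transgene, so these values cannot tell whether the label is right. What sets these arrays apart was not tested. Directions between genotypes that rest on these libraries carry the limit of this split, and so do changes from Hsp72Tg sham to Hsp72Tg MCAO 2 and 3.

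**Figure D1:**
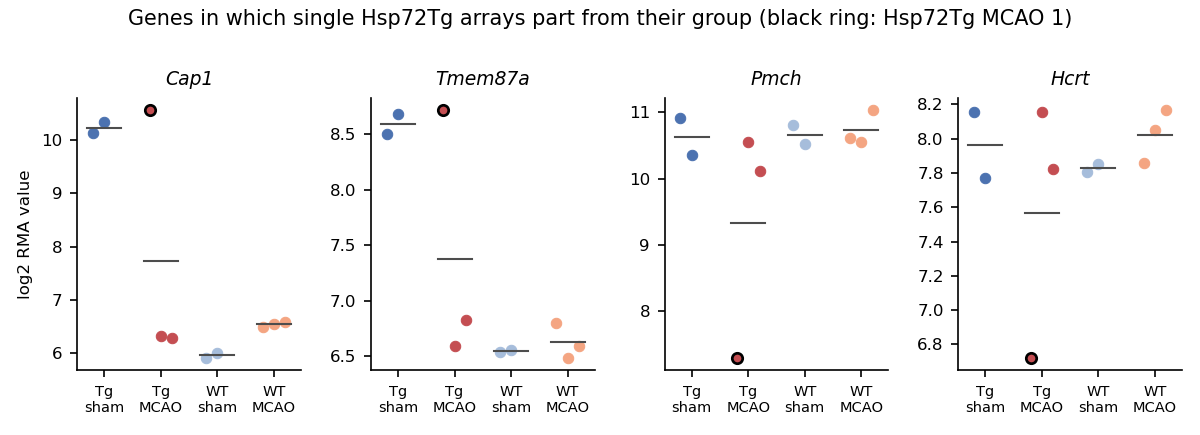
Log2 RMA values (vertical axis, log2 scale) of Cap1, Tmem87a, Pmch and Hcrt in each array by group (horizontal axis, Tg for Hsp72Tg), with lines at group means and a black ring on Hsp72Tg MCAO 1. Cap1 and Tmem87a were high in the 2 Hsp72Tg sham arrays and Hsp72Tg MCAO 1 only, and Pmch and Hcrt were lowest in Hsp72Tg MCAO 1.

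With all arrays, 4 genes passed in limma at an adjusted p under 0.05, which is 0.022% of the 18193 genes tested: Hspa1b, Osmr and Pdlim4 rose (0.0165%) and Tph2 fell (0.0055%). An unadjusted p under 0.05 was reached by 2187 genes (12%), of which 860 were higher (4.73%) and 1327 lower (7.29%). All 3 MCAO arrays lay above both sham arrays in 1646 genes (9.05%) and below both in 2333 (12.8%). The 4 calls depended on which arrays were in the fit: 0 genes passed from the 5 Hsp72Tg arrays alone, and 0 when Hsp72Tg sham 1, sham 2 or MCAO 2, either WT sham array, or WT MCAO 2 or 3 was left out. Pdlim4 alone passed without Hsp72Tg MCAO 3, and Tph2 alone without WT MCAO 1. The labels do not say whether replicates are separate animals, so p-values measure the spread between these samples.

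Hspa1b, 1 of the pair of genes that encode Hsp72, read 9.12 and 9.15 in Hsp72Tg sham and 12.05, 13.96 and 13.09 in Hsp72Tg MCAO 1, 2 and 3. All 3 MCAO arrays stood far above the sham arrays, with Hsp72Tg MCAO 1 the lowest of them. The rise was 14.9-fold, or 3.90 on the log2 scale (SE 0.46, adjusted p = 0.0396 in limma, 95% interval 2.87 to 4.93), and 4.39 (SE 0.33) without Hsp72Tg MCAO 1. The WT sham arrays read 9.38 and 9.48, so Hsp72Tg sham was not above WT sham in this gene, which does not check the transgene because its species is not stated. All 3 probe sets of Hspa1b were higher after MCAO, by 3.90 to 4.41.

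Osmr, the receptor subunit through which oncostatin M signals, read 6.46 and 6.54 in sham and 8.64, 9.72 and 9.78 in MCAO 1, 2 and 3. The groups did not overlap, and the array nearest to sham again was MCAO 1. Osmr rose by 2.88 (SE 0.31, adjusted p = 0.0259), or 3.25 (SE 0.17) without MCAO 1. Of its 3 probe sets, 2 changed by 1.86 and 2.88 and the other, which read 4.60 to 4.85 in every Hsp72Tg array, by -0.07.

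Pdlim4, a PDZ-LIM protein of actin fibres, read 7.90 and 7.74 in sham and 8.93, 8.99 and 9.32 in MCAO 1, 2 and 3. In this gene MCAO 1 lay beside MCAO 2. Pdlim4 rose by 1.26 (SE 0.12, adjusted p = 0.0259), a 2.39-fold change, and by 1.33 without MCAO 1.

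Tph2, which makes serotonin in neurons, read 6.42 and 5.90 in sham and 3.93, 4.03 and 4.01 in MCAO 1, 2 and 3. The 3 MCAO arrays lay below both sham arrays and below the lower quartile of their own array, which was 5.14 to 5.21, so the size of the fall is uncertain. On the measured values Tph2 fell by 2.17 (SE 0.24, adjusted p = 0.0259), and by 2.14 without MCAO 1.

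**Figure D2:**
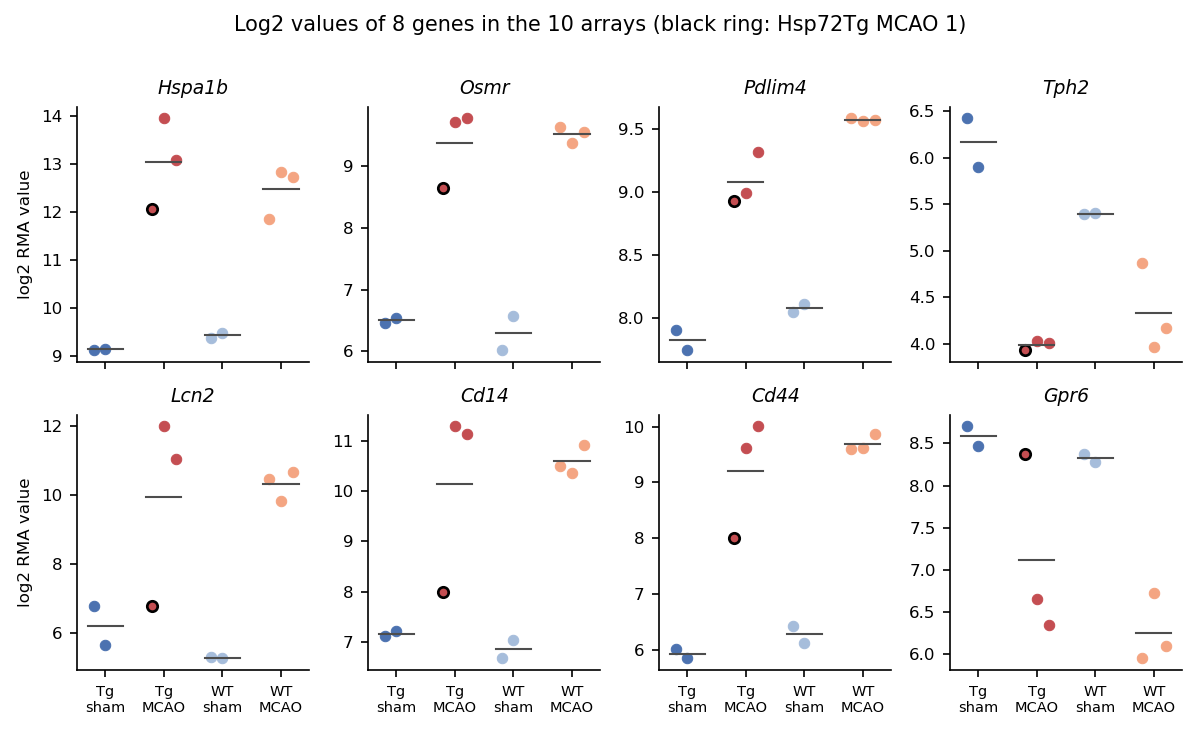
Log2 RMA values (vertical axes, log2 scale, own range per gene) of 8 genes in each array by group (Tg for Hsp72Tg), with lines at group means and a black ring on Hsp72Tg MCAO 1. Hspa1b, Osmr, Pdlim4 and Tph2 part the 3 Hsp72Tg MCAO arrays from sham, while Lcn2 and Gpr6 in Hsp72Tg MCAO 1 read 6.79 and 8.37, at or near the sham arrays.

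Hsp72Tg MCAO 1 was set aside in a second fit because its values lie near sham, so larger changes and more calls follow in part from that choice, and its calls describe Hsp72Tg MCAO 2 and 3 against 2 sham arrays. In that fit 1181 genes passed (6.49%), 616 higher (3.39%) and 565 lower (3.11%), and 353 of them changed at least 2-fold, 274 higher and 79 lower. The count was 497 when Hsp72Tg sham 1 was also left out, 2076 without Hsp72Tg MCAO 3, 780 without either WT sham array and 177 from the 4 remaining Hsp72Tg arrays alone. Both MCAO arrays lay above both sham arrays in 3436 genes (18.9%) and below in 4625 (25.4%). Counts of list members below are to be read against these shares. Below, "without MCAO 1" stands for this fit, and its adjusted p-values are from limma over all genes. In it, both sham arrays lie on 1 side of the Cap1 and Tmem87a split and both MCAO arrays on the other. Whatever sets these arrays apart cannot be told apart from MCAO in these calls.

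Hsp72Tg MCAO 1, which did not enter the choice of those genes, moved in the same direction as the other 2 MCAO arrays in 461 of the 616 higher genes (74.8%) and 423 of the 565 lower ones (74.9%). It shares the 2 sham arrays with that fit, so its direction is not independent of it, and the same share over all genes was not counted. MCAO 1 lay above both sham arrays in 366 of the 616 and below both in 317 of the 565. Among all genes, MCAO 2 and 3 lay above both sham arrays in 3436, and all 3 MCAO arrays in 1646. Below both sham arrays these counts were 4625 and 2333. The median change of the higher genes was 0.15 in MCAO 1, 0.96 in MCAO 2 and 0.88 in MCAO 3, and that of the lower genes -0.12, -0.72 and -0.63. Set against the WT sham arrays instead, MCAO 1 was higher in 468 of the 616 and lower in 346 of the 565. In the median gene its change was 16.3% of the mean change of MCAO 2 and 3 among higher genes and 17.0% among lower ones. It exceeded 50% in 54 higher and 68 lower genes.

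Among the 353 genes that changed at least 2-fold, MCAO 1 showed over 50% of the change of MCAO 2 and 3 in 29, of which 24 were higher. Gfap, the astrocyte filament protein, read 10.28 and 10.45 in sham and 12.08, 11.31 and 12.22 in MCAO 1, 2 and 3, so that MCAO 1 lay above MCAO 2. Its change was 1.51 with all arrays (SE 0.27, adjusted p = 0.284) and 1.40 without MCAO 1 (SE 0.29, adjusted p = 0.0222). Slc6a4, the serotonin transporter, read 6.32 and 6.78 in sham and 5.28, 5.39 and 5.48 in MCAO 1, 2 and 3. Ccl12, a monocyte chemokine, read 5.76 and 5.32 in sham and 7.86, 7.19 and 9.19 in MCAO 1, 2 and 3. Without MCAO 1, Slc6a4 fell by 1.12 and Ccl12 rose by 2.65. The changes of Hspa1b, Osmr and Hspb1 in MCAO 1 were 66.5%, 65.8% and 59.4% of those in MCAO 2 and 3. Serpina3n, a serine protease inhibitor of reactive astrocytes, stood at 58.2% and the filament protein Vim at 55.7%. These genes were ranked after their values were seen.

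**Figure D3:**
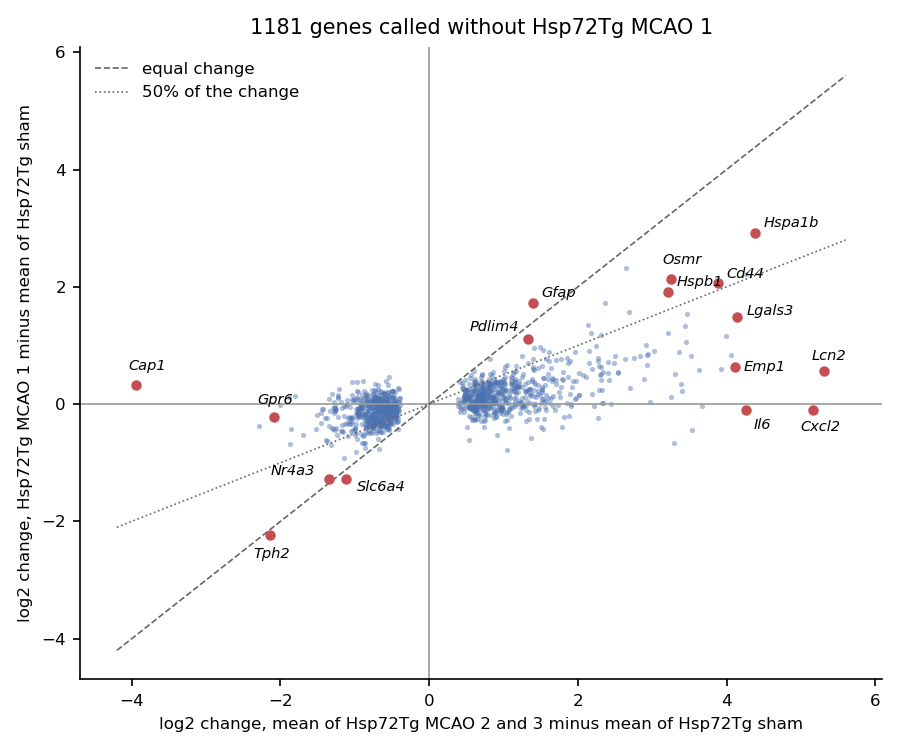
Log2 change of Hsp72Tg MCAO 1 (vertical axis) against the mean log2 change of Hsp72Tg MCAO 2 and 3 (horizontal axis), both against the mean of the 2 Hsp72Tg sham arrays, for the 1181 genes that passed without Hsp72Tg MCAO 1; red points are named. Most points lie near 0 on the vertical axis, while Gfap, Tph2, Slc6a4, Nr4a3 and Pdlim4 lie near the dashed line of equal change.

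Of 32 measured heat shock proteins and co-chaperones, 1 rose with all arrays (Hspa1b) and 7 rose without MCAO 1, with 0 lower in either fit. All 3 MCAO arrays lay above sham in 9 of them and below in 3. The list's median change was 0.15, against -0.02 over all genes. Hspa1a, which encodes the same protein as Hspa1b, read 8.28 and 8.53 in sham and 10.63, 13.23 and 12.11 in MCAO 1, 2 and 3. Its change was 3.58 with all arrays (SE 0.58, adjusted p = 0.183), and it rose by 4.26 without MCAO 1 (adjusted p = 0.000194). The gene pair is nearly identical in sequence, so their probe sets may share signal.

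Hspb1, a small heat shock protein that binds unfolded proteins and actin, read 9.37 and 9.38 in sham and 11.28, 12.83 and 12.34 in MCAO 1, 2 and 3. It did not pass with all arrays (change 2.78, SE 0.36, adjusted p = 0.0755) and rose by 3.21 without MCAO 1. Bag3, a co-chaperone of Hsp70 proteins, read 7.70 and 7.92 in sham, 8.14 in MCAO 1, and 9.89 and 9.14 in MCAO 2 and 3. Bag3 rose by 1.70 without MCAO 1, as did Hspb6 by 1.24 and the lens chaperone Cryab by 1.36. In MCAO 1 itself Hspb6 was 0.82 above sham, but Cryab was 0.59 lower than sham. The constitutive chaperones Hspa8 and Hsp90aa1 had changes of -0.07 and 0.14, and neither passed in either fit.

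Heat shock factors bind repeats of the unit GAA or its reverse TTC. The upstream stretches that match the 2-unit motif, GAANNTTC or TTCNNGAA, are shown for Hspa1a, Hspa1b and Hspb1 because these chaperone genes changed most, with the match in capitals (RefSeq, GRCm38.p6, read 5′ to 3′ on the gene's strand).
Hspa1a (chr17:34972243-34972270, minus strand): gaaactgctgGAAGATTCctggccccaa
Hspa1b (chr17:34959325-34959352, minus strand): gaaactgctgGAAGATTCctggccccaa
Hspb1, first match (chr5:135887792-135887819, plus strand): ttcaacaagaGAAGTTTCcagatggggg
Hspb1, second match (chr5:135887812-135887839, plus strand): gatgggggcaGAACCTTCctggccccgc
The matches begin 104 bases before the start of Hspa1a and of Hspa1b, in the same surrounding sequence, and 117 and 97 bases before that of Hspb1. Within 250 bases before the start, 13 of 38 promoters of the heat shock list held this motif (34.2%), against 1990 of 18109 promoters of all genes tested (10.99%). A longer motif of 3 alternating GAA and TTC units, each spaced by 2 bases, was in 2 of the 38 and in none of these 3 genes. The 2-unit motif was chosen after the 3-unit search. A match describes letters only.

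Of the 13 genes of the pan-reactive astrocyte list, 1 rose with all arrays (Osmr), and 12 rose without MCAO 1 (92.3%, against 3.39% of all genes). In 12 of 13 all 3 MCAO arrays lay above both sham arrays, the exception being Steap4. The 2 probe sets of Steap4 changed by 0.23 and 1.26, and in MCAO 1 each lay below both sham arrays. The median change was 2.31, and 1.22, 2.15 and 2.81 in MCAO 1, 2 and 3, so this list was also well above sham in MCAO 1. WT MCAO had a median of 2.11. The list comes from published work on isolated astrocytes, and several members are also made by other cells.

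Members of that list differed in how far MCAO 1 followed. Lcn2, a lipocalin that binds iron carriers, read 6.79 and 5.66 in sham, 6.79 in MCAO 1, and 11.997 and 11.06 in MCAO 2 and 3. In Lcn2, MCAO 1 stood level with the higher sham array. Without MCAO 1 it rose by 5.31 (SE 0.40), and with all arrays its change was 3.73 (SE 1.19, adjusted p = 0.341). Cd44, a hyaluronan receptor, read 6.02 and 5.84 in sham and 8.0, 9.63 and 10.01 in MCAO 1, 2 and 3, and rose by 3.89 without MCAO 1. Its 4 probe sets changed by -0.03 to 3.28. Timp1, a metalloproteinase inhibitor, stood at 1.33 above sham in MCAO 1 and 3.31 and 3.56 in MCAO 2 and 3. Vim rose by 2.17 and Cp, a copper-carrying oxidase, by 1.52 without MCAO 1, and the 8 probe sets of Cp changed by -0.18 to 1.59.

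The A2 list, genes described in astrocytes after ischemia, had 8 of 12 members higher without MCAO 1 and 0 with all arrays. All 3 MCAO arrays were above sham in 10 of the 12, and the median change was 1.48, with 0.46, 1.64 and 1.70 in MCAO 1, 2 and 3. Cd14, a co-receptor for bacterial lipopolysaccharide, read 7.11 and 7.21 in sham and 8.0, 11.29 and 11.13 in MCAO 1, 2 and 3. Emp1, a membrane protein of growing epithelia, read 5.71 and 5.87 in sham and 6.42, 10.16 and 9.65 in MCAO 1, 2 and 3. Both separated MCAO 2 and 3 from the other 3 arrays by more than 2, and they rose by 4.05 and 4.11 without MCAO 1. The 2 probe sets of Emp1 changed by 0.40 and 2.95. Of the 9 measured A1 genes, described after inflammation, 5 rose without MCAO 1 and 0 with all arrays, with a median change of 0.63. Among them Gbp2, an interferon-induced GTPase, stood at 6.15 in MCAO 1, within the sham values of 6.16 and 6.09, and at 8.49 and 7.49 in MCAO 2 and 3.

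Of 24 markers of resting astrocytes, whose median change was -0.01, 1 rose without MCAO 1, the transcription factor Sox9 by 0.81. The water channel Aqp4 and the glutamate transporter Slc1a2 had changes of 0.08 and 0.13 and did not pass in either fit. The median level over the 24 markers lay between 10.65 and 10.97 in the 5 Hsp72Tg arrays.

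**Figure D4:**
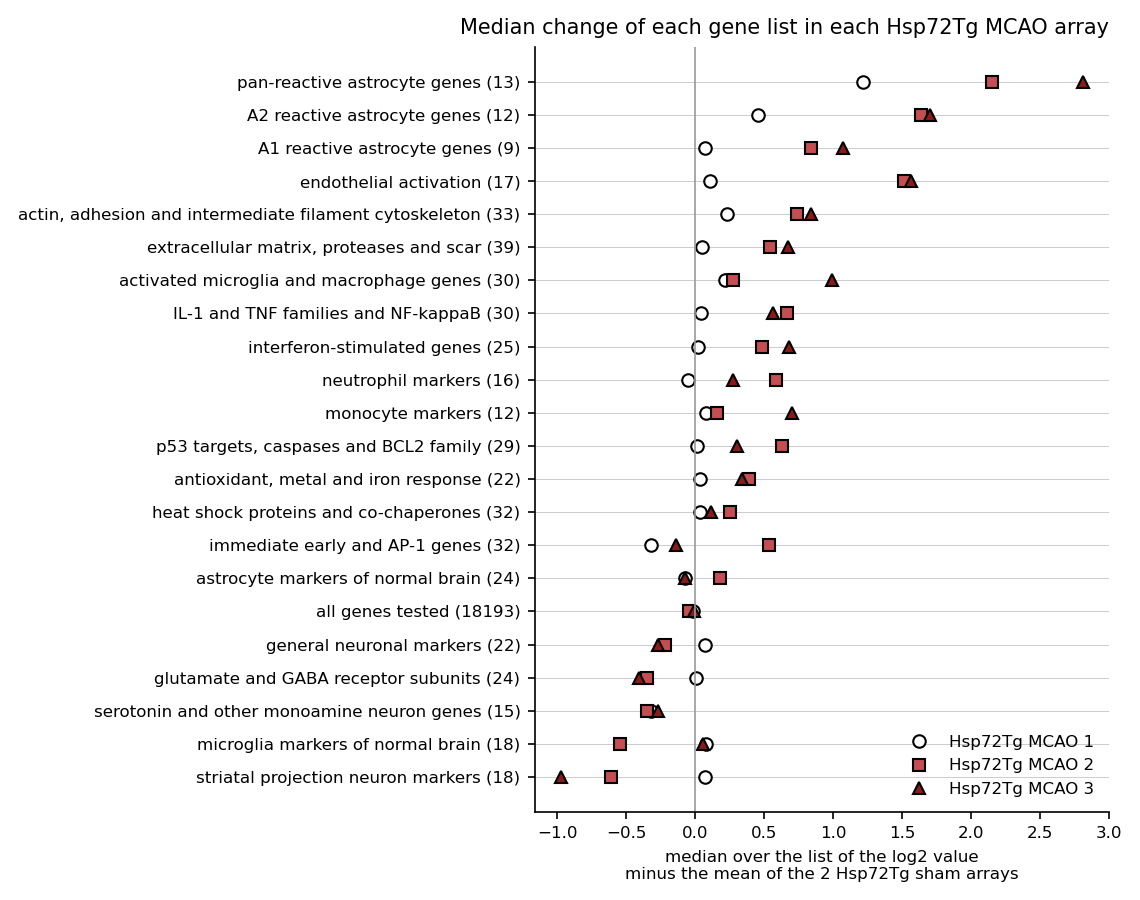
Median over each gene list (number of measured genes in parentheses) of the log2 value minus the mean of the 2 Hsp72Tg sham arrays, for each Hsp72Tg MCAO array. The pan-reactive astrocyte list is at 1.22 in Hsp72Tg MCAO 1, while the endothelial activation and striatal neuron lists are at 0.11 and 0.07 there.

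Genes of cytokine signalling passed in numbers only without MCAO 1. Of 28 genes of the IL-6 family, JAK-STAT and SOCS list, 6 rose then and 1, Osmr, with all arrays. Il6 itself read 4.68 and 4.39 in sham, 4.43 in MCAO 1, and 9.29 and 8.29 in MCAO 2 and 3, so MCAO 1 lay within the sham range. Il6 was below the lower quartile of its array in both sham arrays, which makes the size of its rise of 4.25 uncertain. Lif, a cytokine of the same family, read 5.23 and 5.28 in sham and 6.04, 8.34 and 7.69 in MCAO 1, 2 and 3. Socs3, a feedback inhibitor of these receptors, read 7.13 and 7.24 in sham and 8.02, 10.38 and 9.87 in MCAO 1, 2 and 3. Lif rose by 2.76 and Socs3 by 2.93 without MCAO 1, and the 3 probe sets of Socs3 changed by 2.24 to 3.78. The 2 probe sets of Lif changed by 0.28 and 2.10.

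Of 30 chemokines and receptors 12 rose without MCAO 1 and 0 with all arrays, and all 3 MCAO arrays lay above sham in 12 (40%). Ccl2, which draws monocytes, read 6.32 and 6.45 in sham, 6.98 in MCAO 1, and 11.01 and 9.61 in MCAO 2 and 3, and rose by 3.93 without MCAO 1. Cxcl2, which draws neutrophils, read 4.44 and 4.61 in sham and 4.42, 10.85 and 8.53 in MCAO 1, 2 and 3. It was not raised in MCAO 1. It rose by 5.16 without that array, a size that is uncertain because Cxcl2 too was below the lower quartile in both sham arrays. Cxcl10, a T cell chemokine induced by interferons, was 1.22 above sham in MCAO 1 and 3.62 and 2.81 in MCAO 2 and 3. Among 30 genes of the IL-1 and TNF families and NF-kappaB, 14 rose without MCAO 1. They included the NF-kappaB regulators Nfkbiz (2.01), Tnfaip3 (1.91) and Bcl3 (1.86) and the TWEAK receptor Tnfrsf12a (1.92). In MCAO 1 these 4 genes stood at 0.15, -0.03, 0.47 and 0.29 from sham. None of the 30 passed with all arrays, where 13 had an unadjusted p under 0.05 in limma. Of 20 Toll-like receptors and co-receptors 8 rose without MCAO 1, such as Tlr2 by 1.85, and of 25 interferon-stimulated genes 10 did, such as the antiviral Rsad2 by 2.01. Median changes of these last 2 lists were 0.12 and 0.02 in MCAO 1 and 0.54 and 0.55 without it. Tlr2 and Rsad2 were 0.78 and 0.15 above sham in MCAO 1.

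Markers of immune cells were mixed. Of 30 genes of activated microglia and macrophages 10 rose without MCAO 1, and all 3 MCAO arrays were above sham in 17 (56.7%). Lgals3, the lectin galectin-3, read 5.88 and 5.77 in sham and 7.31, 9.69 and 10.22 in MCAO 1, 2 and 3, and rose by 4.13 without MCAO 1. Cd68, a lysosomal protein of phagocytes, read 7.32 and 7.13 in sham and 8.18, 8.16 and 9.11 in MCAO 1, 2 and 3, with MCAO 1 level with MCAO 2. Microglia markers of normal brain went the other way in part: 4 of 18 fell without MCAO 1 and 0 rose. P2ry12, the ADP receptor of resting microglia, read 8.91 and 8.59 in sham, 8.38 in MCAO 1, and 6.45 and 6.48 in MCAO 2 and 3. P2ry12 fell by 2.29 without MCAO 1, Gpr34 by 2.00, P2ry13 by 1.26 and Selplg by 1.11. In MCAO 1, Gpr34, P2ry13 and Selplg stood at -0.01, -0.06 and 0.07 from sham. Tmem119 and Cx3cr1 of the same list had changes of -0.21 and -0.31 and did not pass. Cx3cr1 read 9.22 and 9.19 in sham and 9.37, 7.91 and 9.39 in MCAO 1, 2 and 3, so only MCAO 2 was below sham. The median over the 18 markers was 0.08, -0.55 and 0.05 in MCAO 1, 2 and 3. With all arrays 7 of the 18 were higher in value than sham.

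Of 16 neutrophil markers 5 rose without MCAO 1. S100a8, a calcium-binding protein of neutrophils, read 7.08 and 6.66 in sham and 6.20, 10.88 and 9.46 in MCAO 1, 2 and 3, so MCAO 1 was the lowest of the 5 arrays. Its partner S100a9 read 6.50 and 6.23 in sham and 5.93, 10.61 and 9.19 in MCAO 1, 2 and 3. Without MCAO 1 they rose by 3.30 and 3.53. The median over the neutrophil list was -0.06, 0.59 and 0.28 in MCAO 1, 2 and 3. Of 12 monocyte markers 2 rose, such as S100a4 by 1.39, and 1 fell without MCAO 1. S100a4 was 0.43, 0.98 and 1.79 above sham in MCAO 1, 2 and 3. None of the 15 lymphocyte markers or 5 measured red blood cell genes passed in either fit, and in limma 0 of them had an unadjusted p under 0.05 with all arrays.

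Of 17 endothelial activation genes 11 rose without MCAO 1 and 0 with all arrays. Their median was 0.11 above sham in MCAO 1 and 1.52 and 1.57 in MCAO 2 and 3. Icam1, the adhesion molecule that leukocytes grip on vessel walls, read 5.56 and 5.43 in sham, 5.71 in MCAO 1, and 9.53 and 8.24 in MCAO 2 and 3. It rose without MCAO 1, by 4.04 in MCAO 2 and 2.75 in MCAO 3. So did the protease Adamts1 by 3.02, Selp, the leukocyte-binding P-selectin, by 2.21 and Thbd, the anticoagulant thrombomodulin, by 1.90. In MCAO 1, Adamts1, Selp and Thbd stood at 0.90, -0.04 and -0.01 from sham, and the 3 probe sets of Selp changed by 0.41 to 1.46 with all arrays. Of 20 blood-brain barrier and endothelial markers 5 rose and 3 fell without MCAO 1. The junction protein Cdh5 rose by 1.60 in that fit and was 0.43, 1.80 and 1.39 above sham in MCAO 1, 2 and 3. Its 2 probe sets changed by 0.26 and 1.21 with all arrays. The transporter Slco1a4 fell by 1.46 without MCAO 1 and stood at -0.14, -2.09 and -0.82 from sham in MCAO 1, 2 and 3.

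Of 39 matrix, protease and scar genes 16 rose without MCAO 1 and 0 with all arrays, and 27 had both MCAO 2 and 3 above sham, against 3.39% and 18.9% of all genes. Tgfbi, a matrix protein induced by TGF-beta, read 6.74 and 6.77 in sham and 7.19, 9.39 and 9.90 in MCAO 1, 2 and 3, and rose by 2.89 without MCAO 1. Of 33 cytoskeleton and adhesion genes 18 rose and 1 fell without MCAO 1, and Pdlim4 rose with all arrays too. Msn, which links actin to the membrane, read 8.57 and 8.85 in sham and 9.60, 10.31 and 11.03 in MCAO 1, 2 and 3. Anxa2, a membrane-binding annexin, rose by 2.30 and Tubb6, a tubulin, by 3.36 without MCAO 1. In MCAO 1 they were 0.52 and 0.89 above sham. The 2 probe sets of Tubb6 changed by -0.10 and 2.53 and the 3 of Anxa2 by 0.04 to 1.71.

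Stress responses beyond heat shock moved further in MCAO 2 and 3 than in MCAO 1. Of 22 antioxidant, metal and iron genes 9 rose without MCAO 1. Hmox1, which breaks down heme, read 6.02 and 6.01 in sham and 7.02, 8.22 and 9.63 in MCAO 1, 2 and 3, so that MCAO 1 was 1.0 above sham. The metal-binding Mt2 rose by 1.79 and Mt1 by 1.16 without MCAO 1. In MCAO 1 they were 0.43 and 0.38 above sham. Of 24 genes of ER stress and the integrated stress response 7 rose, led by the transcription factor Atf3 (3.31), and of 29 p53 targets, caspases and BCL2 family genes 9 rose, led by the cell cycle inhibitor Cdkn1a (2.84). Atf3 and Cdkn1a were 0.51 and 0.81 above sham in MCAO 1. The medians of these 3 lists in MCAO 1 were 0.03, 0.07 and 0.01. All 3 MCAO arrays lay above both sham arrays in 11 of the 22, 10 of the 24 and 8 of the 29 genes, against 9.05% of all genes.

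Immediate early genes, which neurons switch on within minutes of activity or injury, went both ways. Without MCAO 1, 8 of 32 rose, among them the AP-1 subunits Fosl1 by 2.31 and Jun by 1.55, and 3 fell. Fosl1 and Jun were 0.64 and 0.33 above sham in MCAO 1. Nr4a3, an orphan nuclear receptor, read 9.85 and 10.31 in sham and 8.80, 9.18 and 8.28 in MCAO 1, 2 and 3, all below sham, and fell by 1.35 without MCAO 1, while its 3 probe sets changed by -1.33 to 0.11. Fos, the main AP-1 subunit, read 10.79 and 11.33 in sham, 9.62 in MCAO 1, and 12.70 and 11.54 in MCAO 2 and 3, and did not pass. The sham groups also differed: Fos read 8.37 and 9.54 in the WT sham arrays, below both Hsp72Tg sham arrays. Nr4a3 read 9.11 and 9.13 in WT sham, also below both Hsp72Tg sham arrays, and its change in WT was -0.12.

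Markers of striatal projection neurons, the inhibitory cells that make up most of the striatum, were lower in MCAO 2 and 3. With all arrays 0 of 18 passed in limma, 6 had an unadjusted p under 0.05, and the median change was -0.49. Without MCAO 1, 11 fell and 0 rose, and 17 had both arrays below sham, against 25.4% of all genes. The median was 0.07 in MCAO 1, -0.61 in MCAO 2 and -0.97 in MCAO 3. Gpr6, a receptor of indirect pathway neurons, read 8.70 and 8.46 in sham, 8.37 in MCAO 1, and 6.65 and 6.34 in MCAO 2 and 3. Pde10a, a phosphodiesterase rich in striatum, read 10.91 and 10.78 in sham and 10.93, 9.68 and 9.33 in MCAO 1, 2 and 3. MCAO 1 stayed close to sham in both. Without MCAO 1, Gpr6 fell by 2.09, Pde10a by 1.34 and the sodium channel subunit Scn4b by 1.45. The dopamine receptors Drd1 and Drd2 fell by 0.94 and 0.97 in that fit, and the enkephalin precursor Penk by 1.22. In MCAO 1 itself, Drd2 and Penk read 8.71 and 11.94, above both of their sham values. Drd1 read 10.03 there, below both, and Scn4b 11.18, between them.

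Other neuronal lists had fewer calls. Of 22 general neuronal markers 1 fell without MCAO 1, a share near the 3.11% of all genes. Yet MCAO 2 and 3 both lay below both sham arrays in 13 of the 22, against 25.4% of all genes, and above both in 0. Of 24 glutamate and GABA receptor subunits 6 fell, and of 36 ion channel subunits 9 fell, with 0 rising in each. MCAO 2 and 3 both lay below sham in 19 of the 24 and 23 of the 36, and above in 1 of each. Kcnv1, a potassium channel subunit, read 9.41 and 9.09 in sham, 9.39 in MCAO 1, and 7.42 and 7.48 in MCAO 2 and 3. Gabra4, a GABA-A receptor subunit, read 11.16 and 10.96 in sham and 10.93, 10.25 and 9.95 in MCAO 1, 2 and 3. Kcnv1 fell by 1.80 and Gabra4 by 0.96 without MCAO 1. Of 12 hippocampal markers 4 fell, such as the transcription factor Neurod6 by 1.33, where MCAO 1 at 9.50 lay between the sham values of 9.83 and 9.43. Of 20 oligodendrocyte and myelin genes 1 rose and 1 fell.

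Genes of serotonin neurons were low in MCAO 1 too. Of 15 monoamine neuron genes Tph2 fell with all arrays and 5 fell without MCAO 1, Tph2 and Slc6a4 included. Serotonin neurons lie in the brain stem and send only fibres to the hemisphere. Hsp72Tg sham read above WT sham in Tph2, at 6.42 and 5.90 against 5.39 and 5.40.

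Several hypothalamic and monoamine genes had their lowest Hsp72Tg value in MCAO 1. How many members of these lists, or of all genes, did so was not counted. The median of the 15 hypothalamic and pituitary genes was -0.48, -0.08 and 0.08 in MCAO 1, 2 and 3. That of the 15 monoamine neuron genes was -0.32, -0.35 and -0.27. Pmch, a hypothalamic peptide that promotes feeding, read 10.91 and 10.35 in sham, 7.30 in MCAO 1, and 10.55 and 10.12 in MCAO 2 and 3. Hcrt, the wake-promoting orexin, read 8.16 and 7.77 in sham and 6.72, 8.15 and 7.82 in MCAO 1, 2 and 3. Slc6a3, the dopamine transporter of midbrain neurons, read 8.0 and 7.90 in sham and 5.89, 8.54 and 8.24 in MCAO 1, 2 and 3. Among the WT MCAO arrays, Slc6a3 was also low in WT MCAO 2, at 6.47, against 8.12 and 8.24 in WT MCAO 1 and 3. The peptide precursors Cartpt and Avp and the vesicle transporter Slc18a2 were lowest in MCAO 1 too, at 6.83, 6.77 and 5.36. Slc18a2 in MCAO 2 and 3, at 6.87 and 6.69, and Cartpt in MCAO 2, at 8.16, were also below both sham arrays, and Slc18a2 read 5.79 in WT MCAO 2. None of these genes passed in either fit, and their part in the position of MCAO 1 was not tested. These genes were put together here for their low value in MCAO 1, and Slc6a3 was named after its values were seen.

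Hsp72Tg MCAO 2 and 3 also differed from each other, which is a comparison of 2 arrays without a test. MCAO 2 was higher in 42.2% of all genes, with a median difference of -0.04. Of the 32 immediate early genes it was higher in 30, with a median of 0.88, and of the 32 heat shock genes in 26. Npas4, an activity-dependent transcription factor, read 10.997 in MCAO 2 and 6.82 in MCAO 3, between which the sham values of 8.55 and 9.13 fell. Dnajb1, a partner of Hsp70, read 12.85 in MCAO 2 and 11.08 in MCAO 3, against 10.88 and 10.83 in sham.

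Phagocyte genes were higher in MCAO 3. Of 30 activated microglia and macrophage genes 27 were, with a median difference of -0.49 for MCAO 2 minus MCAO 3, and 17 of the 18 microglia markers and 11 of the 12 monocyte markers. Arg1, an arginine-cleaving enzyme of some macrophages, read 4.72 and 4.44 in sham, 4.61 and 4.85 in MCAO 1 and 2, and 8.42 in MCAO 3. Of the Hsp72Tg arrays only MCAO 3 was high in Arg1, and WT MCAO 1, 2 and 3 read 5.6, 7.59 and 7.28. Ctsc, a lysosomal protease, read 8.37 in MCAO 2 and 10.49 in MCAO 3, against 8.31 and 7.94 in sham and 9.66 to 10.11 in the WT MCAO arrays. MCAO 2 was higher in 17 of the 18 striatal markers. Npas4, Dnajb1, Arg1 and Ctsc were chosen after their values were seen.

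**Figure D5:**
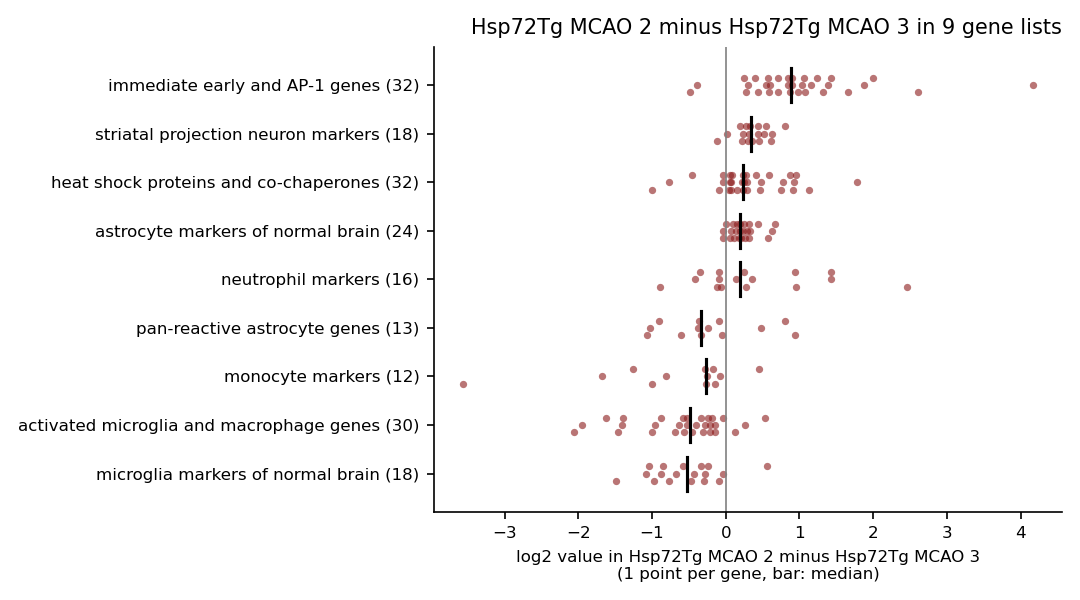
Log2 value in Hsp72Tg MCAO 2 minus Hsp72Tg MCAO 3 (horizontal axis) for each gene of 9 lists (number of genes in parentheses), with black bars at the medians. Immediate early genes lie mostly to the right of 0 with a median of 0.88, and microglia and macrophage genes to the left.

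Among the genes with the largest falls without MCAO 1, several belonged to no list. Cap1 fell by 3.94 and Tmem87a by 1.88, the 2 genes whose split goes against the genotype label. Their falls cannot be told apart from that split. Tafa1, a secreted neuronal protein, read 9.77 and 9.57 in sham and 9.26, 7.70 and 7.94 in MCAO 1, 2 and 3, and fell by 1.86. Pcdh20, a cell adhesion protocadherin, read 9.27 and 8.84 in sham and 8.38, 6.88 and 7.49 in MCAO 1, 2 and 3, and fell by 1.87. In both, MCAO 1 lay below both sham arrays and above the other MCAO arrays. Rnf125, a ubiquitin ligase, was among the largest rises, at 3.67, with 6.37 in MCAO 1 between the sham values of 6.51 and 6.30.

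The difference between the MCAO change in Hsp72Tg and in WT mice was tested for every gene. In limma 0 genes passed with all arrays, 319 (1.75%) had an unadjusted p under 0.05, and the alternative fits gave 0 to 2. Hspa1b rose 0.85 more in Hsp72Tg than in WT (95% interval -0.60 to 2.31, adjusted p = 0.9998 in limma). Osmr differed by -0.36 (interval -1.32 to 0.61) and Pdlim4 by -0.24 (interval -0.62 to 0.15). Tph2 differed by -1.11 (interval -1.86 to -0.36, unadjusted p = 0.00817 in limma), and its WT change was -1.06. Its MCAO values were below the lower quartile of their array in both genotypes. They were 3.93 to 4.03 in Hsp72Tg and 3.97 to 4.86 in WT. Hsp72Tg sham read above WT sham, at 6.42 and 5.90 against 5.39 and 5.40, so the size of the Tph2 difference is uncertain. The smallest p-values included Trpc4, a cation channel subunit, which was lower than sham in all 3 Hsp72Tg MCAO arrays and higher in all 3 WT MCAO arrays, with a difference of -0.68 on 1 of its 3 probe sets (interval -1.01 to -0.35, adjusted p = 0.9998). The Hsp72Tg change of the 3 probe sets ran from -0.31 to 0.11.

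Without MCAO 1, 778 genes (4.28%) had an unadjusted p under 0.05 for this difference and 2 passed (0.011%): Cap1 at -4.52 (adjusted p = 1.10e-06) and Tmem87a at -1.96 (adjusted p = 0.0111). Both rest on the split described above, in which the Hsp72Tg sham arrays stand apart from WT sham. In WT mice alone 10 genes (0.055%) passed. WT MCAO had the same sign in 610 of the 616 higher genes (99.03%) and 539 of the 565 lower ones (95.4%), with medians of 0.64 and -0.29. The WT arrays enter that fit only through the spread, and genes are not independent of each other. The share of all genes with the same sign in both genotypes was not counted.

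Promoters of the genes that rose without MCAO 1 were searched for motifs because AP-1 subunits and genes of IL-6 signalling were among them. The AP-1 motif TGANTCA was in 66 of 604 promoters of the higher genes (10.9%), 21 of 569 of the lower genes (3.69%) and 1018 of 18109 of all genes tested (5.62%). The STAT motif TTCNNNGAA was in 7.95%, 5.98% and 6.21%, and the antioxidant motif TGACNNNGC in 14.2%, 11.2% and 11.5%. All were searched on both strands in the 250 bases before the start, and AP-1 and antioxidant matches can overlap. The stretches of 5 genes described above are shown with the match in capitals (RefSeq, GRCm38.p6, 5′ to 3′ on the gene's strand).
Emp1, AP-1 (chr6:135362776-135362802, plus strand): tctgtgtgtcTGAGTCAgagggagcta
Lif, AP-1 (chr11:4257330-4257356, plus strand): cagtcagctgTGACTCAggccatagtg
Mt2, AP-1 (chr8:94172529-94172555, plus strand): aaagggggtgTGACTCAgcgcgggggg
Tnfaip3, AP-1 (chr10:19015530-19015556, minus strand): aatgcccaggTGACTCAcgcggggaca
Socs3, STAT (chr11:117969502-117969530, minus strand): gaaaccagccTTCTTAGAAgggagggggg
The AP-1 matches of Emp1, Lif, Mt2 and Tnfaip3 begin 145, 228, 79 and 136 bases before the start and the STAT match of Socs3 154 bases before it. Emp1 holds a second AP-1 match 25 bases before its start.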

How the data were processed

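The authors deposited log2 values of Affymetrix arrays, and the submitters' processing notes name RMA, whose version the sources used here do not state. RMA brings arrays to 1 distribution, so total signal per array carries no information. Of 45101 probe sets, 64 controls, 932 with several gene symbols and 9160 unnamed ones were left out, and the probe set with the highest mean over 10 arrays stood for each of 18193 genes. Array medians lay between 6.67 and 6.73. Precision is limited by 2 sham and 3 MCAO arrays.

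Group means were fitted to all 10 arrays with limma 3.58.1 in R 4.3.3 (6 residual degrees of freedom, prior 3.72; 5 and 4.57 without Hsp72Tg MCAO 1). A gene was called where its two-sided p, adjusted by Benjamini-Hochberg over all genes, was under 0.05. Lists held 1036 genes in 47 lists, of which 943 were measured. The comparison, lists and rule for named genes were chosen with earlier results of these data known. The rule took up to 12 called genes per direction in each fit and, in each list, up to 6 called members or, with fewer than 4, up to 4 members with the largest changes, besides Hspa1a, Hspa1b, markers of other regions and 4 genes per direction for the difference between genotypes. Other members named with a list were chosen after their values were seen. Fits were tested on simulated data. Promoters are RefSeq's for GRCm38.p6, found for 14452 genes. Alternatives are given in the closing section.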

Additional observations from a re-analysis of the deposited data

Results flagged for a closer look

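Cap1 and Tmem87a stood out because their MCAO change differed between the genotypes once Hsp72Tg MCAO 1 was left out, by -4.52 and -1.96 (Hsp72Tg minus WT, adjusted p = 1.10e-06 and 0.0111 in limma). Hsp72Tg sham 1, sham 2 and MCAO 1 were high and the other 7 arrays low in both genes, and the source of this split was not tested. With all arrays the differences were -3.10 and -1.29 (adjusted p = 0.9998 for both).

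Trpc4 was flagged because all 3 Hsp72Tg MCAO arrays were below both of their sham arrays while all 3 WT MCAO arrays were above theirs. Its naming rested on a small p-value for the difference between genotypes in limma, so opposite directions follow in part from that choice. How many of all genes show this pattern was not counted. Trpc4 read 8.25 and 8.21 in Hsp72Tg sham and 8.12, 7.89 and 7.85 in Hsp72Tg MCAO. In WT sham it read 8.17 and 8.22, and in WT MCAO 8.56, 8.56 and 8.67. The 3 probe sets of Trpc4 had Hsp72Tg changes of -0.31 to 0.11. The difference of -0.68 did not pass over all genes (adjusted p = 0.9998 in limma), and beyond that fit it was not tested.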

How the results depend on the processing

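Calls from so few arrays moved with the processing. The 4 genes called with all arrays became 0 with the 5 Hsp72Tg arrays alone, the replicate number as a block, every probe set tested, or an adjusted p under 0.01. They became 3 to 6 with other weights, scalings, filters or probe set rules, and 0 to 1181 when 1 array was left out. All 4 kept their direction wherever they were tested; Tph2 was not tested once dim genes were left out. Replicate numbers showed no clear pairing: deviations correlated at -0.16 to 0.25 between same-numbered arrays and at -0.23 to 0.20 between the others. The deviations of the 2 sham arrays of a group mirror each other, so these values cannot exclude a pairing.

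The 1181 genes called without Hsp72Tg MCAO 1 became 177 from the 4 Hsp72Tg arrays alone, 392 with array weights, 666 with the replicate block, 355 at an adjusted p under 0.01 and 353 with at least a 2-fold change. Leaving out 1 further array gave 497 (Hsp72Tg sham 1) to 2076 (Hsp72Tg MCAO 3), and 780 without either WT sham array. All 1181 kept their direction in these fits, and 1177 did with the mean over probe sets. For the difference between genotypes, leaving out 1 array gave 0 to 2 genes, with 2 without Hsp72Tg MCAO 1 and 2 without WT sham 2.

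Some genes that passed in no fit changed sign when 1 array was left out, and the causes were not tested. Each range below spans all the fits, not only the one named for the change of sign. Npas4, for example, was 1.05-fold of sham without Hsp72Tg MCAO 1, and both ends of its range came from other fits. Those that turned with Hsp72Tg MCAO 1 left out ranged from -0.69 to 0.025 (Hcrt), -0.42 to 0.58 (Avp, 0.12 with array weights and 0.19 without Hsp72Tg sham 1), -0.88 to 0.44 (Slc6a3) and -1.21 to 0.88 (Npas4, 0.42 with the replicate block). Those that turned with Hsp72Tg MCAO 2 left out ranged from -0.14 to 0.19 (Aqp4), -0.56 to 0.18 (Cx3cr1), -0.012 to 1.11 (Dnajb1) and -0.48 to 1.06 (Fos). Those that turned with Hsp72Tg sham 1 left out ranged from -0.014 to 0.29 (Hsp90aa1) and -0.037 to 0.30 (Slc1a2).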

Other observations

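Several lists had 0 members called in limma in either fit. With all arrays an unadjusted p under 0.05 was reached by 5 of 30 cell cycle genes, 4 of 36 respiratory chain genes, 0 of 20 cholesterol synthesis genes and 0 of 26 cytosolic ribosomal protein genes, against 12% of all genes. The median change was 0.01, -0.13, 0.00 and 0.12 in these lists. All 12 cerebellar, 14 thalamic, 11 choroid plexus and 11 ependymal markers also had 0 calls in either fit.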
